A study of Mus musculus with 8 samples.

Results

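The 37 genes described here encode titin, the proteins of the Z-disc and M-band, the thin filament proteins and their regulators, and the muscle ubiquitin ligases that turn these proteins over. They are a list of names, with no threshold on a measured value, drawn up when earlier results of these data were known, and were matched to the symbols of the deposited tables without regard to case. All 37 were found among 80155 loci, of which 39614 carry a gene symbol and are called annotated below, and 36 have a locus of their own. The exception is Murc, whose locus bears 4 symbols. The loci of 9 members, namely Myom1 (7 annotated entries), Xirp1 (5), Tmod1 (3), Murc (2), Lmod2 (Wasl), Tnnc1 (Nisch), Nrap (Habp2), Fbxo32 (Klhl38) and Cryab (Hspb2), also span other coding genes, so their FPKM may hold reads of those neighbours. The study compared the hearts of 4 mice at postnatal day 1 (P1) with those of 4 mice at postnatal day 7 (P7), the window in which the neonatal mouse heart matures and withdraws from the cell cycle. All 8 animals were untreated males of the outbred Hsd:ICR(CD-1) strain, each giving 1 library. The atrial appendages had been cut away, so a sample is the remaining heart with all of its cell types, and its total RNA was depleted of ribosomal RNA and made into a library with a ScriptSeq v2 kit.

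The sarcomere is the contractile unit of heart muscle. Thin filaments of actin, tropomyosin and troponin are anchored at the Z-disc by alpha-actinin, thick filaments of myosin are crosslinked at the M-band by the myomesins, and titin runs from the one structure to the other as a molecular spring. Around this core sit LIM and PDZ-LIM adaptor proteins that sense stretch, desmin filaments that tie neighbouring Z-discs together, capping proteins that set the length of the thin filament, and ubiquitin ligases of the MuRF and atrogin type that remove worn components.

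Expression was measured as FPKM, the number of sequenced fragments relative to transcript length and library size, so levels are given per length. Fold changes (log2FC, P7 against P1) are on the log2(FPKM + 1) scale, which understates the change of genes with a low level. A differentially expressed gene (DEG) had a mean FPKM that differed by a factor of at least 1.5 and passed 0.05 in limma, a linear model fitted over all 43172 loci tested with p-values adjusted after Benjamini and Hochberg. By this rule 5 of the 37 members rose in the P7 hearts and 0 fell, against 7.74% of the 17960 annotated loci tested that were called higher and 0.401% called lower. Without adjustment, 19 of the 37 members had a limma p under 0.05 with a higher level in P7, against 25.6% of the annotated loci, and 1 with a lower level, against 4.1%. The 19 include Myom3 and Myot, which reached the 1 FPKM needed for testing only in P7 hearts. The 5 DEG were Myom2, Tcap, Xirp2, Trim54 and Des. Their mean FPKM was between 2.41 and 3.77 times as high at P7 as at P1.

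The promoters of 3 of these 5 DEG are printed below, as RefSeq gives them for GRCm38.p6, to show the sequence upstream of genes whose level differed between the stages. Each window runs from 250 bases before to 50 bases after the annotated start of the transcript, 5′ to 3′ on the coding strand, which is the plus strand for all 3. They are the windows of Des (chr1:75360042-75360341), Xirp2 (chr2:67445752-67446051) and Trim54 (chr5:31116362-31116661). Capitals mark matches, on either strand, to 3 motifs bound by muscle transcription factors, namely the MCAT element (CATTCC), the MEF2 site and the CArG box.
Des: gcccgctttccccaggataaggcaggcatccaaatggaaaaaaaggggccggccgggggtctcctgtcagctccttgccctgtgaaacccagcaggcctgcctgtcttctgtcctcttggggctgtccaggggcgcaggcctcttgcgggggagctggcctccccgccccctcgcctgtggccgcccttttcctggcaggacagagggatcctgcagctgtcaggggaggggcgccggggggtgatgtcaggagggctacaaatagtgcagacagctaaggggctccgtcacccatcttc
Xirp2: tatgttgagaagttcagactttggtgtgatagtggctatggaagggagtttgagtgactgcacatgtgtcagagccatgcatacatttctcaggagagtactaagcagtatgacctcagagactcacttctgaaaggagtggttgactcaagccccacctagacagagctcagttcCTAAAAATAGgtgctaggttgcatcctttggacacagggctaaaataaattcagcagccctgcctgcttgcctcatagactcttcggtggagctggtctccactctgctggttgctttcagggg
Trim54: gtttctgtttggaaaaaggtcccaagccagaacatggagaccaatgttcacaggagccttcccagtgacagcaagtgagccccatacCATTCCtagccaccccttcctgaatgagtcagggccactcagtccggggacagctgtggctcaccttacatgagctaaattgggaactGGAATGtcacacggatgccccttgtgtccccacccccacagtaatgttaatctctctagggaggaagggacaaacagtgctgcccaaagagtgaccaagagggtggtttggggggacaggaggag
The Des window held no match to these 3 motifs. In the Xirp2 window 1 MEF2 site, CTAAAAATAG, began 74 bases before the start, and in the Trim54 window an MCAT element lay 163 bases before the start and a reverse one, GGAATG, 75 bases before it. The count covered 40 windows for 31 of the members, and some windows of 1 gene overlap. It is not a count of all windows that the reference holds for the list. For a member without a counted window, the presence of a motif was not tested. A MEF2 site was present in 8 of the 40 windows (7 genes), against 3.2% of all 32851 windows of this length. An MCAT element was found in 11 windows (10 genes, background 14.7%) and a CArG box in 6 windows (4 genes, background 1.6%). The genes with a MEF2 site were Fhl2, Mybpc3, Myom3, Myoz2, Synpo2l, Ttn and Xirp2, of which Xirp2 was a DEG. A match is a string of letters and does not show that a factor is bound there.

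The 37 genes spanned a wide range of levels. Tnnc1, which encodes the calcium-binding subunit of cardiac troponin, was the highest at both stages, with 1707 ± 441 FPKM (SD, n = 4) at P1 and 1908 ± 538 FPKM at P7. Tpm1, the main tropomyosin of the heart, followed with 1247 ± 589 and 1713 ± 568 FPKM. Csrp3, the muscle LIM protein, was the third at both stages with 498 ± 117 and 648 ± 137 FPKM. At the other end, Myom3 (0.348 ± 0.0621 FPKM at P1 and 1.37 ± 0.618 at P7) and Myot (0.411 ± 0.136 and 0.951 ± 0.317) stayed near or under 1 FPKM. Both reached the minimum of 1 FPKM in any heart, which a locus needed to be tested, only through P7 hearts.

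Before the single genes, some features of the hearts bear on every member. P1 replicate 4 had the highest level among the P1 hearts for 37 of the 37 members, and it was also the highest of its stage at 64.4% of the annotated loci tested. P1 replicate 3 was the lowest of all 8 hearts for 30 members, against 37.6% of the annotated loci. Among the P7 hearts, replicate 3 was the highest for 32 members (51.1% of the annotated loci) and replicate 2 the lowest for 32 (53.3%). The hearts thus differed within a stage in the same direction for nearly the whole list, as they did, less uniformly, for the transcriptome. P1 replicate 3 also had 28662 loci at 1 FPKM or more, against 20269 to 22292 in the other hearts. Without this heart 34934 loci were tested in place of 43172. The FPKM of all loci summed to 2.14e+06 in P7 replicate 4, against 1.04e+06 to 1.40e+06 in the other hearts. The summed FPKM of the 37 members ranged from 5146 to 9978 in the P1 hearts and from 6946 to 11939 in the P7 hearts, and the ranges overlapped (two-sided exact permutation test, n = 4 per stage, p = 0.229). As a share of the FPKM of all annotated loci it was 0.895 to 1.77% at P1 and 1.19 to 1.65% at P7 (same permutation test, p = 0.514).

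**Figure D1:**
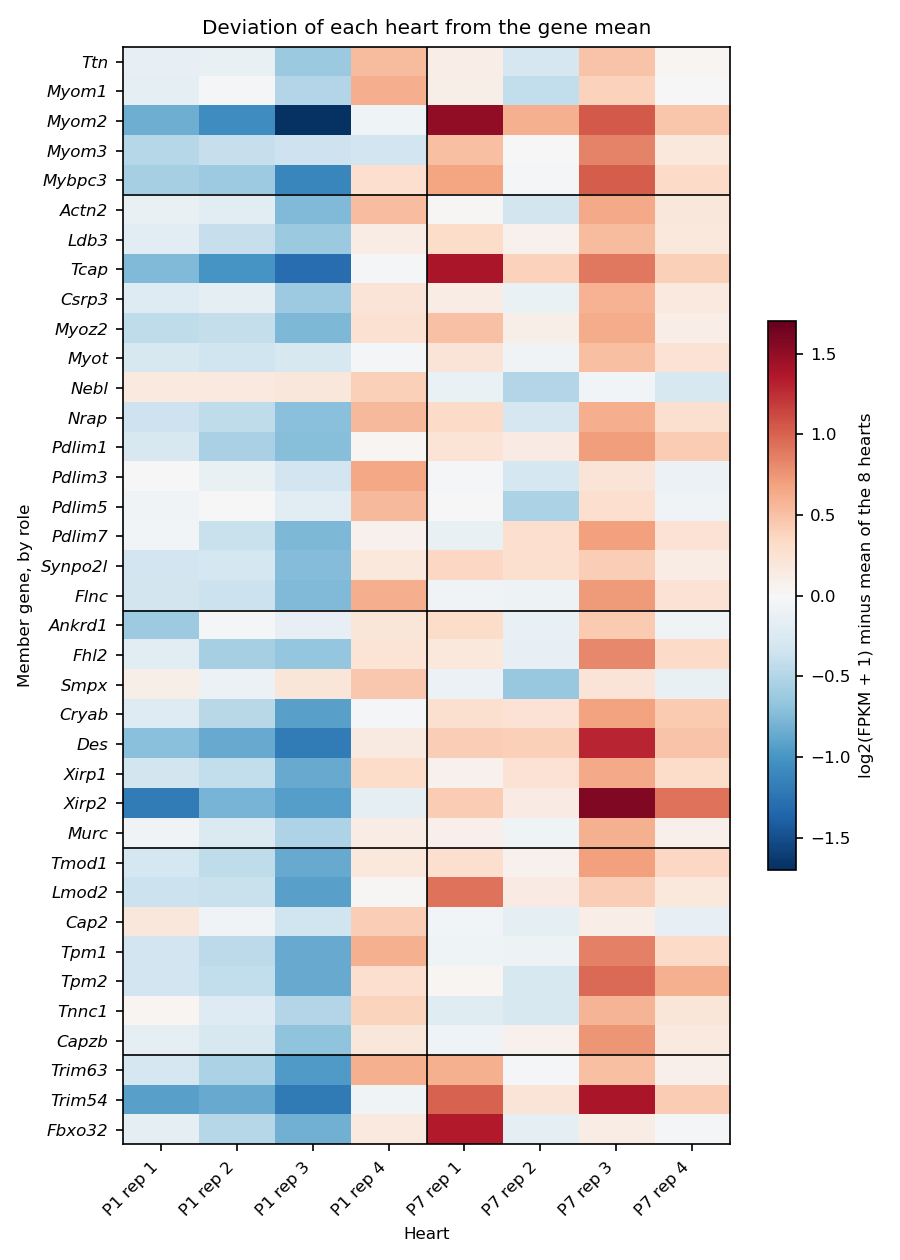
Heat map of log2(FPKM + 1) of the 37 members (rows, by role, separated by lines) in the 8 hearts (columns, P1 left, P7 right), as the difference from the mean of the 8 hearts for that gene. P1 replicate 3 is the lowest heart for 30 members, P7 replicate 3 is the highest of its stage for 32, and Myom2, Tcap, Des, Xirp2 and Trim54 show the strongest contrast between the stages.

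The FPKM hold no read counts, and the total of reads and the mapping summary per sample that the study reports were not used here. The scale of the hearts was examined instead. The median log2FC of all annotated loci was 0.19, and scaling each heart by its median ratio over the annotated loci moved it to 0.0095. The median over the 37 members was 0.55 as deposited and 0.34 after that scaling. With the scaled values the same 5 members were called higher and Nebl was called lower, where 8.05% of the annotated loci were higher and 3.67% lower. In 32 of the 37 members the log2FC was above 0 as deposited, as in 67.6% of the annotated loci. The 5 below 0 were Nebl, Smpx, Pdlim5, Cap2 and Pdlim3. In tissue of mixed cell types, fewer cells of a type and less RNA per cell cannot be told apart.

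**Figure D2:**
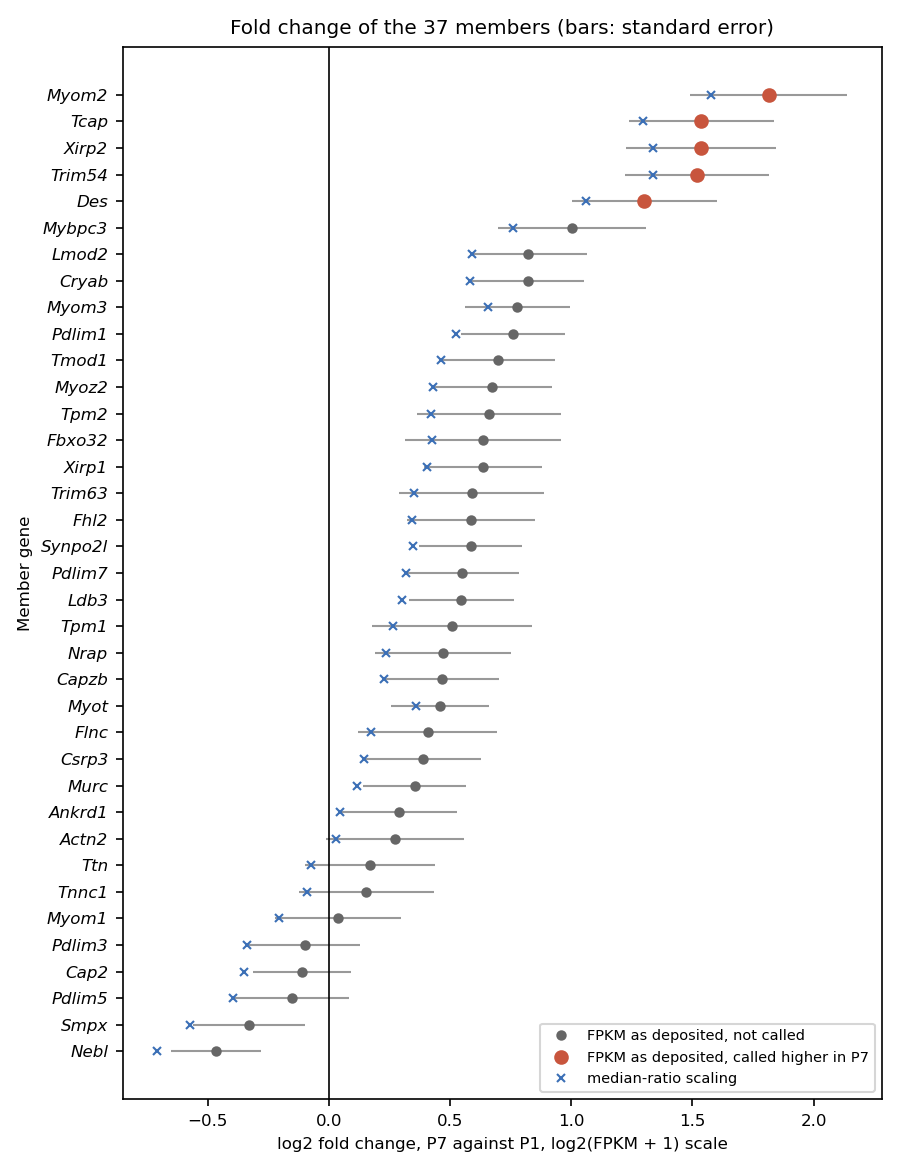
Fold change of each of the 37 members (rows) as log2FC between P7 and P1 on the log2(FPKM + 1) scale, 4 hearts per stage. Circles with bars give the limma estimate and its standard error for FPKM as deposited, large red circles the 5 DEG, and crosses the estimate after median-ratio scaling, which lies to the left of the circle for every member.

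Of titin and the M-band genes, 1 of 5 was a DEG, where 7.74% of the annotated loci were called higher. Myom2 encodes myomesin 2 (M-protein), a crosslinker of the thick filaments, and lies at chr8:15057653-15133541 of GRCm38. Its level was 39.3, 33.4, 21.4 and 67.1 FPKM in P1 replicates 1 to 4 and 203, 108, 146 and 97.6 FPKM in P7 replicates 1 to 4, the order used for all values below. Every P7 heart stood above every P1 heart, and Myom2 rose with a log2FC of 1.81 ± 0.33 (SE, adjusted p = 0.0150, limma), the largest of the list. Its relative Myom1, which encodes the myomesin found in all striated muscle, was at 109 ± 38.1 FPKM at P1 and 109 ± 25.0 FPKM at P7 (log2FC 0.036 ± 0.26, adjusted p = 0.941). The locus of Myom1 is one of those that span other coding genes, among them Myl12a and Myl12b.

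Myom3, the third myomesin, was far lower, with 0.261, 0.349, 0.375 and 0.405 FPKM at P1 and 1.52, 0.775, 2.17 and 1.00 FPKM at P7. The stages did not overlap, but the difference was not called (log2FC 0.78, adjusted p = 0.0704, limma). Its symbol is on 2 loci, and with these summed the log2FC was 0.54 (adjusted p = 0.193, limma). Titin itself, the giant spring protein, stood at 441, 445, 314 and 706 FPKM at P1 and 524, 397, 676 and 497 FPKM at P7. The P1 values enclosed all of the P7 values, and the log2FC of Ttn was 0.17 ± 0.27 (adjusted p = 0.709). It turned to -0.073 with median-ratio scaling, as that of Myom1 did to -0.21. For Mybpc3, the cardiac myosin-binding protein C, the means were 133 ± 57.4 and 260 ± 80.7 FPKM. Its log2FC of 1.00 ± 0.30 missed the threshold (adjusted p = 0.0957) and P1 replicate 4, at 215 FPKM, exceeded the 174 FPKM of P7 replicate 2.

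Among 14 genes of the Z-disc core, 1 rose and 0 fell, against 7.74% and 0.401% of the annotated loci, with a median log2FC of 0.47. The DEG was Tcap (chr11:98383811-98384953), whose product telethonin clamps the ends of titin molecules together at the Z-disc. It was measured at 49.4, 41.4, 33.8 and 82.6 FPKM at P1 and at 221, 110, 157 and 112 FPKM at P7. The order of the hearts in Tcap was close to that in Myom2, with P7 replicate 1 the highest and P1 replicate 3 the lowest in both. Its log2FC was 1.54 ± 0.30 (adjusted p = 0.0197, limma). Without adjustment, 7 of the 14 had p under 0.05 with a higher level at P7, and 1, Nebl, with a lower level (25.6% and 4.1% of the annotated loci). Myot, among the 7, was tested only because of its P7 hearts.

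Nebl (chr2:17342707-17731464, minus strand) encodes nebulette, the nebulin-like protein of the cardiac Z-disc. Its FPKM was 144, 143, 146 and 170 in the P1 hearts and 118, 90.1, 124 and 106 in the P7 hearts. It was the sole member with all P7 hearts below the lowest P1 heart, a pattern shown by 2.69% of the annotated loci. The log2FC of -0.47 ± 0.19 was not called (adjusted p = 0.207, limma). After median-ratio scaling it was -0.71 with an adjusted p of 0.0106 and Nebl was called lower, as it was when the hearts were scaled to 7 cardiomyocyte markers (adjusted p = 0.0339, an alternative chosen after seeing the data). With correction for GC content, which is 40.1% in its transcripts, the estimate of Nebl was instead -0.18 (adjusted p = 0.568).

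The PDZ-LIM adaptors, which dock on alpha-actinin, did not share 1 direction. Pdlim1 was at 29.4, 24.1, 21.4 and 36.5 FPKM at P1 and 42.2, 39.6, 59.1 and 48.7 FPKM at P7. These ranges did not overlap, although the adjusted p of 0.0735 in limma missed the threshold. Pdlim7 had a log2FC of 0.55 and Ldb3 (cypher) also of 0.55, whereas Pdlim3 was at -0.10 and Pdlim5 at -0.15. None of these 4 passed the test, and the signs of Pdlim3 and Pdlim5 turned in some alternative fits. Pdlim5 and Ldb3 were the most abundant of the 5, Pdlim5 at 226 ± 55.8 FPKM in the P1 hearts and 203 ± 45.5 FPKM in the P7 hearts and Ldb3 at 151 ± 34.5 and 218 ± 31.2 FPKM.

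The remaining Z-disc genes did not pass the test. Alpha-actinin itself, Actn2, was at 233 ± 85.5 FPKM at P1 and 276 ± 77.5 FPKM at P7, a log2FC of 0.27. Csrp3 had 0.39 and the actin crosslinker Flnc 0.41. Higher estimates came from Myoz2, which encodes a calcineurin-binding calsarcin (0.67, adjusted p = 0.170, limma), and from Synpo2l, an actin-bundling partner of alpha-actinin (0.59, adjusted p = 0.162). For Nrap, which acts in myofibril assembly, the value was 0.47, and for the low gene Myot, the alpha-actinin partner myotilin, 0.46. For each of these 7 genes at least 1 P1 heart reached the range of the P7 hearts.

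**Figure D3:**
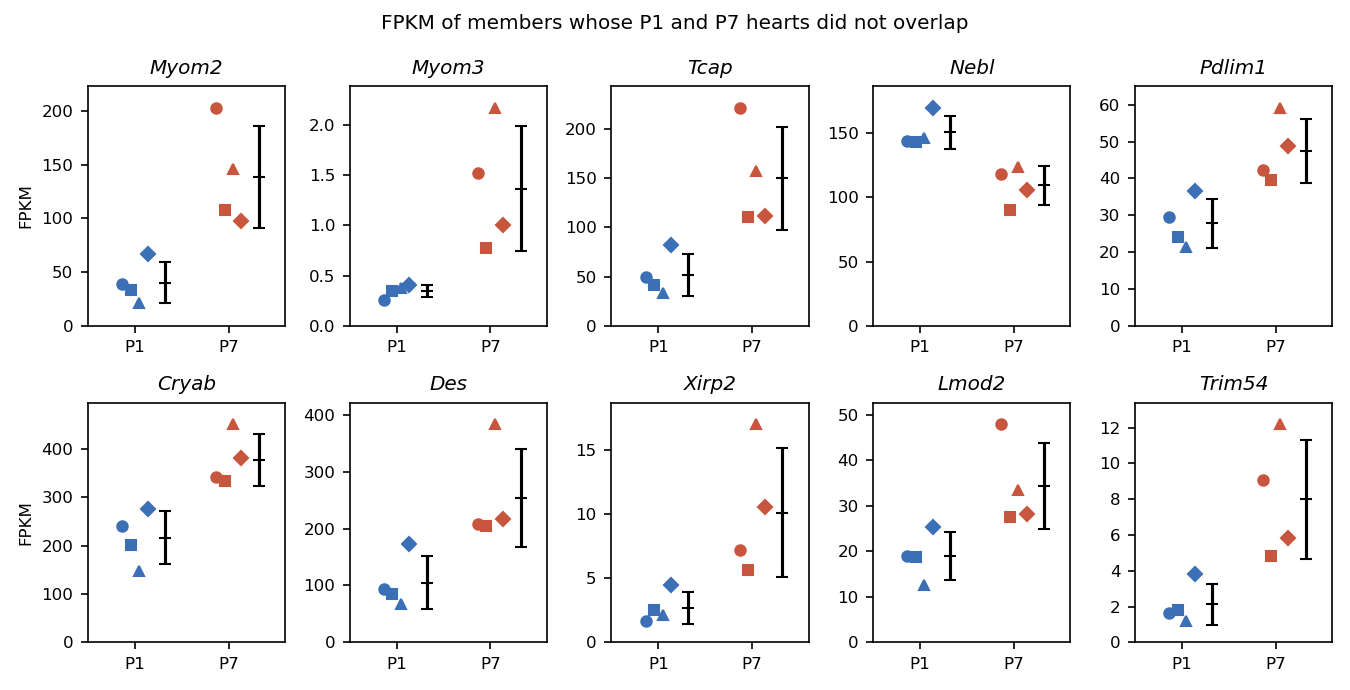
FPKM (linear axes from 0) of the 10 members whose P1 (blue) and P7 (red) hearts did not overlap, 1 symbol per heart with the circle, square, triangle and diamond standing for replicates 1 to 4. The bar beside each stage is the mean ± SD (n = 4), and Nebl is the one gene with the P7 hearts below the P1 hearts, 90.1 to 124 against 143 to 170 FPKM.

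Non-overlapping stages were found for 10 of the 37 members. Higher in every P7 heart were 9, namely Myom2, Myom3, Tcap, Pdlim1, Cryab, Des, Xirp2, Lmod2 and Trim54, and 17.3% of the annotated loci tested had this pattern. For Myom3 this follows in part from the filter, as it was tested only because of its P7 hearts.

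Linkers and titin partners gave 2 DEG of 8, both higher (7.74% of the annotated loci), with a median log2FC of 0.61. Des encodes desmin, the intermediate filament that joins Z-discs to each other and to the membrane, and its locus lies at chr1:75360329-75375012. Its FPKM was 94.7, 85.4, 67.3 and 172 at P1 and 209, 205, 383 and 217 at P7. The highest P1 heart remained under the lowest P7 heart, while P7 replicate 3 stood well above the other P7 hearts. Des rose with a log2FC of 1.30 ± 0.30 (adjusted p = 0.0345, limma). Desmin is also made by smooth muscle cells, and the summed FPKM of 6 smooth muscle and pericyte markers was 301 to 623 in the P1 and 245 to 373 in the P7 hearts, with 1 marker called higher and 1 lower (7.74% and 0.401% of the annotated loci). The markers did not share 1 direction. At an unadjusted limma p under 0.05, 2 were higher and 2 lower (25.6% and 4.1% of the annotated loci). Acta2 was at 214 to 455 FPKM at P1 and 90.7 to 199 at P7, and Pdgfrb at 4.77 to 14.5 and 14.3 to 22.4. The part of these cells in the level of Des was not tested.

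Xirp2 (chr2:67445954-67526659), whose product binds actin at the intercalated disc and the Z-disc, was the other DEG. It was low in the P1 hearts, with 1.66, 2.51, 2.17 and 4.48 FPKM, and reached 7.22, 5.66, 17.0 and 10.6 FPKM in the P7 hearts. Its mean was 3.74 times as high at P7, and the log2FC was 1.53 ± 0.31 (adjusted p = 0.0220, limma). The MEF2 site of its promoter is the one capitalised above. The related Xirp1 was more abundant, with 15.7 ± 5.86 and 24.1 ± 4.26 FPKM, and was not called (log2FC 0.64, adjusted p = 0.189).

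Cryab encodes alpha-B crystallin, a small heat shock protein that protects desmin and titin. It was at 240, 201, 148 and 275 FPKM at P1 and 340, 332, 450 and 381 FPKM at P7, again without overlap. Its log2FC of 0.82 ± 0.23 had an adjusted p of 0.0718 in limma and was not called. The titin-binding stretch sensors showed smaller estimates, 0.29 for Ankrd1 and 0.59 for Fhl2, and Murc, which encodes a caveolar coat protein of muscle, had 0.35. Smpx, a small stretch-responsive protein of the costamere, had the second lowest estimate of the list, with 396 ± 64.7 FPKM at P1 and 319 ± 74.5 FPKM at P7 (log2FC -0.33 ± 0.23, adjusted p = 0.434).

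No thin filament gene passed the test, 0 of 7 in limma, where 7.74% of the annotated loci were called higher. Of the 7, 3 (Lmod2, Tmod1 and Tpm2) had an unadjusted p under 0.05, all with the higher level at P7 (25.6% of the annotated loci). Lmod2 encodes leiomodin 2, which elongates thin filaments at the pointed end, and was at 19.1, 18.9, 12.7 and 25.3 FPKM at P1 and 47.9, 27.6, 33.5 and 28.2 FPKM at P7. The stages were apart, with an adjusted p of 0.0844. Tmod1, the tropomodulin that caps the same end, had means of 30.9 ± 9.42 and 49.7 ± 9.33 FPKM (log2FC 0.70, adjusted p = 0.131). The tropomyosins Tpm1 and Tpm2 had a log2FC of 0.51 and 0.66, and Capzb, the beta subunit of the protein that caps the barbed end at the Z-disc, had 0.47. Tnnc1 stood at 0.16 and Cap2, an actin-recycling protein, at -0.11.

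Of the 3 ubiquitin ligases 1 was a DEG, where 7.74% of the annotated loci were called higher, and this was Trim54. It encodes MuRF3, a RING-finger ligase that binds microtubules and the Z-disc, and lies at chr5:31116712-31137630. The 4 P1 hearts had 1.65, 1.80, 1.20 and 3.83 FPKM and the 4 P7 hearts 9.10, 4.85, 12.2 and 5.83 FPKM. Trim54 rose with a log2FC of 1.52 ± 0.30 (adjusted p = 0.0201, limma), and its mean was 3.77 times as high at P7. Trim63, which encodes MuRF1, was the most abundant ligase, with 37.3 ± 19.1 and 52.9 ± 11.6 FPKM (log2FC 0.59, adjusted p = 0.314). Fbxo32, which encodes atrogin, had 6.63, 5.10, 3.85 and 8.57 FPKM at P1 and 20.6, 6.58, 8.28 and 7.33 FPKM at P7. A single P7 heart, replicate 1, stood apart there, and the log2FC of 0.64 was not called (adjusted p = 0.311).

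Since hearts differed in scale, 8 pairs of members were also compared as a ratio within each heart, a quantity that any scaling of the heart leaves as it is, though a correction that differs between genes does not. With 4 hearts per stage the smallest two-sided exact permutation p is 0.0286, which is 0.0381 after Benjamini-Hochberg adjustment over the 8 ratios for the 6 that reached it. Myom2 to Myom1 was 0.418, 0.318, 0.287 and 0.412 in the P1 hearts and 1.79, 1.36, 1.05 and 0.921 in the P7 hearts. Thus Myom1 was the more abundant by FPKM in every P1 heart, and Myom2 in 3 of the 4 P7 hearts. The mean log2 ratio was higher by 1.81 at P7 (exact permutation p = 0.0286). Myom3 to Myom1 differed by 1.84 in the same direction, but since Myom3 was tested only because of its P7 hearts, this ratio is given as a description. With it left out, the other 5 had an adjusted p of 0.04 over 7 ratios. The Myom1 in both denominators is the value of the whole locus.

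Trim63 to Trim54 moved the opposite way, since Trim54 is the denominator. It was 20.9, 16.0, 17.7 and 16.9 at P1 and 7.12, 8.55, 4.99 and 7.68 at P7, a mean log2 difference of -1.36 (exact permutation p = 0.0286). The 4 P1 hearts lay close together here despite the spread of their FPKM. Tcap to Ttn was 0.112, 0.0930, 0.108 and 0.117 at P1 and 0.423, 0.278, 0.232 and 0.224 at P7, higher by 1.39 on the log2 scale (exact permutation p = 0.0286). Xirp2 to Xirp1 was higher by 1.20 and Pdlim1 to Pdlim5 by 0.94, each with the same p. In these 6 ratios the stages did not overlap. Each of the 6 holds a member whose own FPKM did not overlap either, so the ratios are not separate from the results of the single genes. Tpm2 to Tpm1 (log2 difference 0.17, exact permutation p = 0.286) and Lmod2 to Tmod1 (0.14, p = 0.714) overlapped between the stages. With 1 heart left out the smallest possible p is 0.0571, so no ratio can pass, and with a pseudocount of 1 Xirp2 to Xirp1 no longer passed (adjusted p = 0.0762). The GC trend of each heart was also taken off both genes, an alternative chosen after seeing the data. The same 6 ratios had an adjusted p of 0.0381 (exact permutation test), with Myom3 to Myom1 again given as a description. The difference for Tcap to Ttn was then 0.79 in place of 1.39 and that for Xirp2 to Xirp1 1.82 in place of 1.20, and Tpm2 to Tpm1, which did not pass, turned to -0.14.

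**Figure D4:**
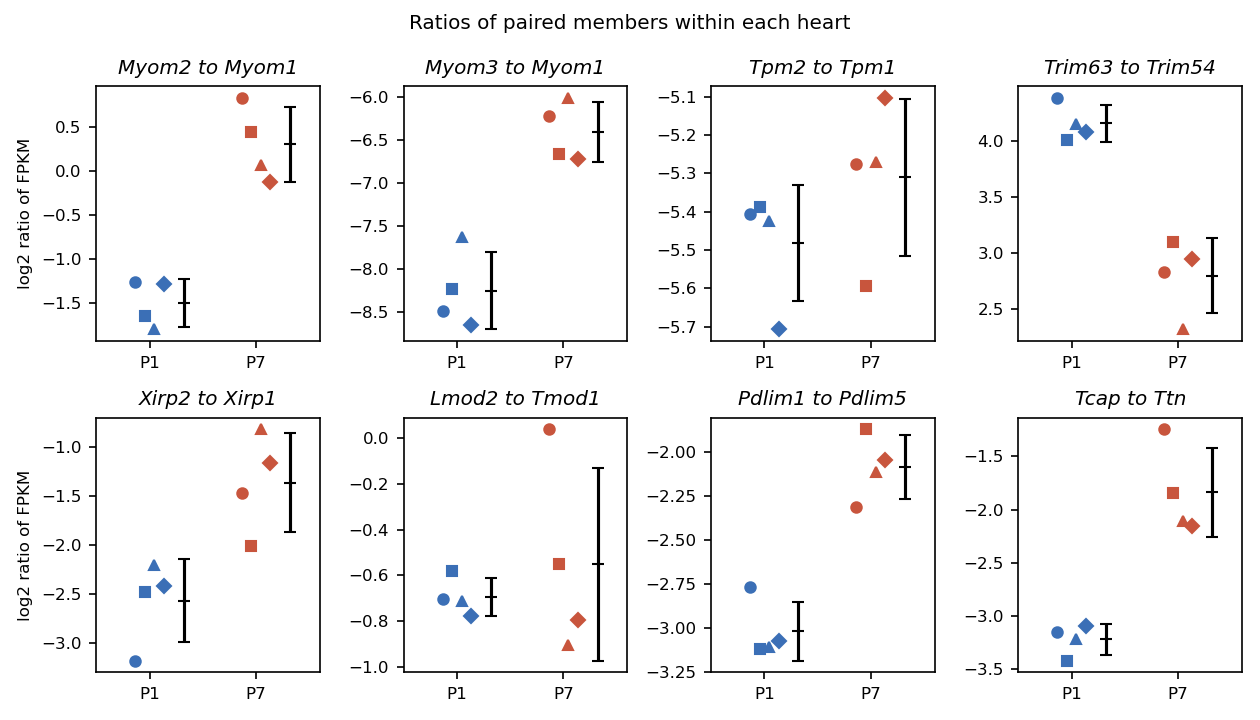
Log2 ratio of the FPKM of 2 members in the same heart for 8 pairs (panels, each with its own vertical axis), P1 hearts in blue and P7 hearts in red, circle, square, triangle and diamond for replicates 1 to 4, and the bar the mean ± SD (n = 4). In 6 panels the stages are apart, with Myom2 to Myom1 at 0.287 to 0.418 in P1 and 0.921 to 1.79 in P7 as a plain ratio, and in the panels of Tpm2 to Tpm1 and Lmod2 to Tmod1 they overlap.

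The 5 calls depended on which hearts were used. Their log2FC stayed between 1.09 and 2.09 whichever heart was left out, but the adjusted p crossed the threshold in several of these limma fits. Without P1 replicate 2, 0 members were called (Myom2, adjusted p = 0.0541). Without P1 replicate 3 or P7 replicate 3, Myom2 alone was called, and without P7 replicate 1, Xirp2 alone. Des was lost without P1 replicate 1 or P7 replicate 4 (adjusted p = 0.0726 and 0.0594), and all 5 were kept without P7 replicate 2. Without P1 replicate 4, the highest P1 heart, 14 members were called higher, and so were 2720 of 17671 annotated loci. The annotated loci called higher moved in the other fits as well, from 1390 of 17960 with all hearts. They were 791 of 17840, 156 of 17856 and 395 of 17796 without P1 replicates 1, 2 and 3. Without P7 replicates 1 to 4 they were 279 of 17733, 978 of 17860, 256 of 17771 and 689 of 17854.

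The GC content of the transcripts varied across the list from 39.7 to 61.3%. It was 61.3% for Tcap, 59.9% for Trim54, 56.5% for Des, 51.8% for Myom2 and 42.2% for Xirp2. When each heart was corrected for transcript GC content, Myom2 (adjusted p = 0.0296, limma) and Xirp2 (0.0236) were still called, and Tcap (0.120), Trim54 (0.115) and Des (0.129) were not. The estimates of the latter 3 were then 1.07, 1.08 and 0.97 on the log2 scale. The direction was the same for all 5.

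The label of the tissue was checked against markers of the cell types a heart can hold. The 7 cardiomyocyte markers summed to 19306 to 34265 FPKM in the P1 hearts and 23826 to 36981 FPKM in the P7 hearts, and 0 of the 7 were called in limma (2 with an unadjusted p under 0.05). For the counts in this paragraph, 7.74% of the annotated loci were called higher, and 25.6% were higher with an unadjusted p under 0.05. Of 6 fibroblast markers 3 rose, with sums of 664 to 1277 and 1167 to 1482 FPKM, and of 5 endothelial markers 2 rose, with 104 to 173 and 221 to 332 FPKM. The 5 leukocyte markers summed to 5.10 to 8.56 and 7.79 to 10.7 FPKM and the 4 red cell markers to 314 to 959 and 919 to 1214 FPKM, and none of these 9 were called in limma (2 and 3 with an unadjusted p under 0.05). The atrial markers summed to 3900 to 5055 and 3898 to 5289 FPKM, although the appendages had been removed. Within that sum Nppa was lower in every P7 heart (1315 to 1781 FPKM at P1, 800.3 to 1188 at P7) and Sln higher (148 to 310 and 364 to 668 FPKM), and neither was called. Myh1, Myh2, Myh4, Myod1 and Myog, which define skeletal muscle, were under 1 FPKM in every heart. The other 3 skeletal muscle markers were not, with Tnni2 at 2.39 to 5.96 FPKM and Tnnt3 at 0.482 to 1.44 FPKM over the 8 hearts. The last of them, Mybpc2, was at 0.505 ± 0.319 FPKM at P1 and 2.04 ± 0.972 FPKM at P7. Mybpc2 was tested only because of its P7 hearts, so its call (adjusted p = 0.0445, limma) is given as a description. The part of these cell types in the values of the 37 genes was not tested.

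Beyond the list, 63 further genes of the sarcomere and its assembly were looked up, of which 57 were tested. In limma 7 of the 57 rose and 0 fell, against 7.74% and 0.401% of the annotated loci. At an unadjusted p under 0.05, 18 were higher and 1 lower (25.6% and 4.1% of the annotated loci). Mybpc2, counted among both the 7 and the 18, was tested only because of its P7 hearts. The median log2FC was 0.29. The median of the 37 members was 0.55, and no test was made between the lists. The highest increase was that of Ankrd23, a titin-binding ankyrin repeat protein related to Ankrd1, from 8.67 ± 3.29 to 45.7 ± 20.3 FPKM (log2FC 2.24 ± 0.30, adjusted p = 0.00553). Hspb8 (log2FC 1.61) and Bag3 (1.06), partners in the chaperone complex that clears damaged filamin at the Z-disc, were both called, whereas their client Flnc was not. Pdlim4 rose with a log2FC of 1.32 from 2.72 ± 0.704 to 8.22 ± 0.964 FPKM, and Mybphl, a relative of the myosin-binding proteins, with 1.25 from 8.82 ± 2.99 to 21.7 ± 2.69 FPKM.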

How the data were processed

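Hearts of 4 P1 and 4 P7 mice were sequenced, 1 library per animal. The authors aligned the reads to GRCm38 and deposited 1 table of FPKM per heart, normalized for length and library size; the aligner and its version are not given in the sources used here. FPKM hold no depth, and the depth of each heart was not used, so its effect on the precision was not taken into account. The 43172 loci that reached 1 FPKM in any heart were fitted with limma 3.58.1 in R 4.3.3 (lmFit, eBayes with trend) on log2(FPKM + 1), a pseudocount of 1, and p-values were adjusted over all of these loci. The thresholds (0.05 for the adjusted p, 1.5 for the ratio of means) are those of the study, which names no test. Where a symbol had several loci, the one with the highest mean FPKM was used. All 37 members are named, and of the other sarcomere genes up to 5 called genes with the largest changes in each direction. The members and lists were chosen with earlier results of these data known. Ratios within a heart were tested with a two-sided exact permutation test over 70 assignments (scipy 1.17.1). The scripts were tested on simulated data. The numbers shared by P1 and P7 hearts do not pair the animals, which were separate mice. Alternatives were the pseudocount, filter, scaling, weights, trend, GC content (known for 91.8% of the annotated loci tested), replicate block and leaving out each heart. Promoter sequences were matched by symbol.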

Additional observations from a re-analysis of the deposited data

Results flagged for a closer look

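In 96 groups of 4 hearts, made of the 37 members, the 8 ratios and the summaries of the hearts, 5 held 1 heart far from the other 3, by the ratio of its gap to the range of the group (Dixon, 95% level), and chance alone gives about 1 in 20 such groups. For Nebl the gap of P1 replicate 4 was 0.885 of the range, at 170 FPKM against 143 to 146 in the other P1 hearts. For Des that of P7 replicate 3 was 0.931, at 383 FPKM against 205 to 217. Fbxo32 was at 20.6 FPKM in P7 replicate 1 against 6.58 to 8.28, a gap of 0.878. The ratio of Tpm2 to Tpm1 was 0.0192 in P1 replicate 4 against 0.0233 to 0.0239 (0.873), and that of Pdlim1 to Pdlim5 was 0.147 in P1 replicate 1 against 0.115 to 0.119 (0.884). The cause was not tested for any of these.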

How the results depend on the processing

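Counts of DEG moved with the processing, and the cause was not tested. Annotated DEG numbered 1462, and 231 with no filter, 2573 with 1 FPKM in every heart, 2951 with sample quality weights, 941 without the trend, 370 with GC correction and 383 with GC correction and the replicate block, and 167 to 2835 with 1 heart left out. Called members numbered 5, and 0, 10, 13, 2 and 2 with no filter, every heart, weights, GC correction and GC correction with the block, 9 with annotated loci only, and 0 to 14 with 1 heart left out. The annotated loci called higher moved as well, from 1390 of 17960. They were 192 of 39614 with no filter, 2424 of 12730 with every heart and 2773 of 17960 with weights. With GC correction they were 347 of 17960, with the block added 343 of 17960, and with annotated loci only 2339 of 17960. The other sarcomere genes numbered 7, and 2 with no filter, 15 with weights, 3 with GC correction, 3 with GC correction and the block, and 3 to 12 with 1 heart left out. Samples with the same replicate number did not deviate together (correlations of -0.10 to 0.12), and with the replicate number as a block 1052 annotated loci, 5 members and 7 other sarcomere genes were called, and 0 of the ratios, with or without GC correction, for which the smallest p with 4 pairs is 0.125. With any 1 heart left out 0 ratios passed, because 4 against 3 hearts cannot go below 0.0571. With all hearts 6 had passed, among them Myom3 to Myom1, which is given as a description. Some signs turned, all in members not called in any setting. With median-ratio scaling, quantile normalization and cardiomyocyte marker scaling Ttn was at -0.073, -0.073 and -0.12 and Myom1 at -0.21, -0.19 and -0.26, and Tnnc1 was at -0.089 and -0.14 with the first and last. Under cardiomyocyte marker scaling Actn2 was at -0.021 and Ankrd1 at -0.0069. With GC correction, alone or with the block, Actn2 was at -0.0027, Flnc at -0.0014, Tnnc1 at -0.045, Pdlim3 at 0.15, Pdlim5 at 0.062 and Cap2 at 0.0054, and the log2 ratio of Tpm2 to Tpm1 at -0.14. With 1 heart left out the log2FC ranged from -0.0094 to 0.38 for Ttn, -0.13 to 0.25 for Myom1, -0.23 to 0.10 for Pdlim3, -0.27 to 0.0050 for Pdlim5, -0.24 to 0.011 for Cap2 and -0.011 to 0.31 for Tnnc1, and the log2 ratio of Lmod2 to Tmod1 from -0.056 to 0.26. With FPKM alone, depth was not taken into account, 4 hearts per stage limit the precision, and Myom3, Myot, Xirp2 and Trim54 rest on low levels.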
